A study of Homo sapiens with 36 samples.

Results

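The RNA polymerase II (Pol II) peaks of chromosomes 1 to 19 were compared between A549 and B2B cells, as 45934 peaks of the A549 list and 22847 peaks of the B2B list, which together made 68781 of the 476964 peaks in all 16 lists of the series. Chromosomes past 19 were left out because the A549 list ended at the start of chromosome 20, where its last 4 peaks lay. The series holds chromatin immunoprecipitation sequencing (ChIP-seq) of 36 labelled samples, of which 4 are used here, namely 2 replicates of each line. A549 is a human lung adenocarcinoma line, and B2B (BEAS-2B) is a non-cancerous human bronchial epithelial line that was immortalized. Both lines were untreated and crosslinked with formaldehyde, and Pol II was precipitated with the antibody 8WG16. Each group is 1 cell line, so that differences between the lines cannot be told apart from differences between their cultures or immunoprecipitations. The authors pooled the 2 replicates before they called peaks, so no value below has a replicate error and no test between the lines was possible. Intervals are 95% intervals (Wilson for shares, Newcombe for differences between shares) and cover counting error only.

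Pol II is the enzyme that transcribes protein-coding genes and many non-coding RNAs. It is recruited to a start site by general initiation factors, often pauses shortly after it has begun, is released into the gene body by the kinase P-TEFb, and leaves the template beyond the cleavage and polyadenylation site. A ChIP-seq peak is a stretch in which reads exceed the local background that the peak caller estimated, so a peak at a start site marks polymerase that is bound there and does not by itself show that the gene is transcribed to its end. The antibody 8WG16 was raised against the repeats of the carboxy-terminal domain of the largest subunit and is known to prefer repeats without phosphate.

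To show what kind of sequence lay under these peaks, the 250 bases before the start of 4 genes are given, chosen as examples of the patterns of occupancy described later. ME1 (malic enzyme, chr6:83431052-83431301, minus strand) had a start-site peak in A549 only. FOS (an AP-1 subunit, chr14:75278578-75278827, plus strand) had peaks in both lines, and H1-5 (a linker histone, chr6:27867589-27867838, minus strand) and CDKN2B (a cell cycle inhibitor, chr9:22009306-22009555, minus strand) had peaks in B2B only. The sequences are from RefSeq, build GRCh38.p14, 5′ to 3′ in the direction of the gene. Capitals mark matches on either strand to the TATA box (TATAAA), to the CCAAT box, to the GC box (GGGCGG) and to the AP-1 motif (TGACTCA or TGAGTCA).
ME1: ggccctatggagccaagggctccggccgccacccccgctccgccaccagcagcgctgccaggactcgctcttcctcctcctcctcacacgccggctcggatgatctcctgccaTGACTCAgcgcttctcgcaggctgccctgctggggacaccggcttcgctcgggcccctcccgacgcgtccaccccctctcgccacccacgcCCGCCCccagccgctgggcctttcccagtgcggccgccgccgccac
FOS: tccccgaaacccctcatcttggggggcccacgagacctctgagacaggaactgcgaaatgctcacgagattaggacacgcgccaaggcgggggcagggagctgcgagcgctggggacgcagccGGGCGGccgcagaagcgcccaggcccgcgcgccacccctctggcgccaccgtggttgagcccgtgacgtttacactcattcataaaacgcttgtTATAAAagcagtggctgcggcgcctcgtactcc
H1-5: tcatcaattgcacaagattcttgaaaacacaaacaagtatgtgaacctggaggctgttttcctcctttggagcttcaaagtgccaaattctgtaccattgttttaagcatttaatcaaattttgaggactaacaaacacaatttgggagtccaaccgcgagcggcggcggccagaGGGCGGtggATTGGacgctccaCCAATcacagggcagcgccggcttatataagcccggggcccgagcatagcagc
CDKN2B: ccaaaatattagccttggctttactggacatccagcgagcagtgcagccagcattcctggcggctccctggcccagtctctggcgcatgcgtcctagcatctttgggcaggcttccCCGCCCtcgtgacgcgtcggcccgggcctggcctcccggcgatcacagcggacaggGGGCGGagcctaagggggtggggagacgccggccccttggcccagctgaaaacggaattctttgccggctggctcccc
The match to TATAAA in FOS began 33 bases before the start, and ME1 held an AP-1 match 137 bases before it. A match is a description of the letters and does not show that a factor was bound.

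Some peaks away from start sites lay over an AP-1 motif. For each class the 101 bases around the summit of 1 gene-body region that held the motif outside exons are given. Each region was picked for a high fold enrichment in A549 or B2B and need not be the highest of its class. The windows are from hg38, plus strand, with the AP-1 motif in capitals. The A549-only window lay in DPY19L1 (chr7:35003803-35003903), the shared window in the divergent transcript MARCHF10-DT (chr17:62819926-62820026) and the B2B-only window in LHFPL6 (chr13:39565726-39565826).
DPY19L1: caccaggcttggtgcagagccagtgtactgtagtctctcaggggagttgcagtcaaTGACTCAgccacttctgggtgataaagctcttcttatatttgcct
MARCHF10-DT: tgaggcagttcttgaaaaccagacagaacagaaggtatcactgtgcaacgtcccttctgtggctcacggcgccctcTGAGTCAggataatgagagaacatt
LHFPL6: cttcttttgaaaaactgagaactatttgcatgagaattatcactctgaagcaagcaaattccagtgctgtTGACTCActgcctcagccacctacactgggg
At its summit the DPY19L1 region reached 175 reads in A549, and the LHFPL6 region reached 72 reads in B2B. The MARCHF10-DT region reached 69 reads in A549 and 113 in B2B.

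The identity of the lines was checked against marker genes. Of 15 genes of other tissues, such as haemoglobin, insulin and T cell receptor genes, 13 had a start-site peak in neither line, with RBFOX3 in A549 only and TNNT2 in B2B only as the exceptions. CDKN2A and CDKN2B, which lie in a part of 9p21 that A549 is known to lack, had start-site peaks of 250 and 286 reads in B2B and none in A549, while the neighbouring MTAP had peaks of 181 reads in A549 and 107 in B2B. Epithelial genes were only partly occupied. Of 19 simple epithelial genes, 7 had a start-site peak in A549 only, 4 in both lines, 1 in B2B only and 7 in neither. Members with strong A549 peaks, such as ELF3 and KRT7, are described further below. CDH1, which encodes E-cadherin, had a peak of 88 reads in A549 only, EPCAM had peaks of 110 reads in A549 and 43 in B2B, and KRT19 and KRT5 had none in either line.

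To investigate how far the lines shared their Pol II sites, overlapping peaks were merged into 52357 regions. Of these, 33340 (63.7%, 63.3 to 64.1) were called in A549 only, 12210 (23.3%, 23.0 to 23.7) were shared and 6807 (13.0%, 12.7 to 13.3) were called in B2B only. The lists differed in length, and 27.4% of A549 peaks overlapped a B2B peak against 70.2% of B2B peaks that overlapped an A549 peak. When the A549 list was cut to its 22847 most significant peaks, 11909 regions were A549 only, 10832 shared and 8255 B2B only. Equal list lengths by themselves leave little room for an excess of either line, so this cut does not measure the excess.

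The strong peaks were the shared ones. In the tenth of A549 peaks with the lowest significance 4.44% overlapped a B2B peak, and in the tenth with the highest 92.3% did. In B2B the same shares were 49.6% and 93.6%. Median pileup, the number of overlapping fragments at the summit, was 19 reads in A549-only regions and 21 reads in B2B-only regions. In shared regions it was 149 reads in A549 and 109 in B2B. The pileup was solved from the deposited fold enrichment and p-value, and its highest values were 332 reads in A549 and 319 in B2B, so that the strongest sites of both lines lay near a common ceiling. The ratio of A549 to B2B peaks ran from 1.27 on chromosome 13 to 2.67 on chromosome 19, and A549 had more peaks on each of the 19 chromosomes.

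Shared regions lay mostly at start sites, and regions of a single line lay mostly in gene bodies. A region was placed by its strongest summit at a start site (within 1 kb of an annotated start), at a 3′ end (1 kb before to 3 kb after a gene end), in a gene body or between genes, in that order. Start sites held 67.2% (66.4 to 68.0) of shared regions, 19.3% (18.9 to 19.8) of A549-only regions and 14.4% (13.6 to 15.3) of B2B-only regions. Gene bodies held 20.2% of shared, 53.7% of A549-only and 58.3% of B2B-only regions. Of points placed every 1 kb along the same chromosomes, 3.01% fell at start sites and 53.8% in gene bodies, so regions of a single line were also denser at start sites than the genome and were about as frequent in gene bodies as the genome itself.

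**Figure D1:**
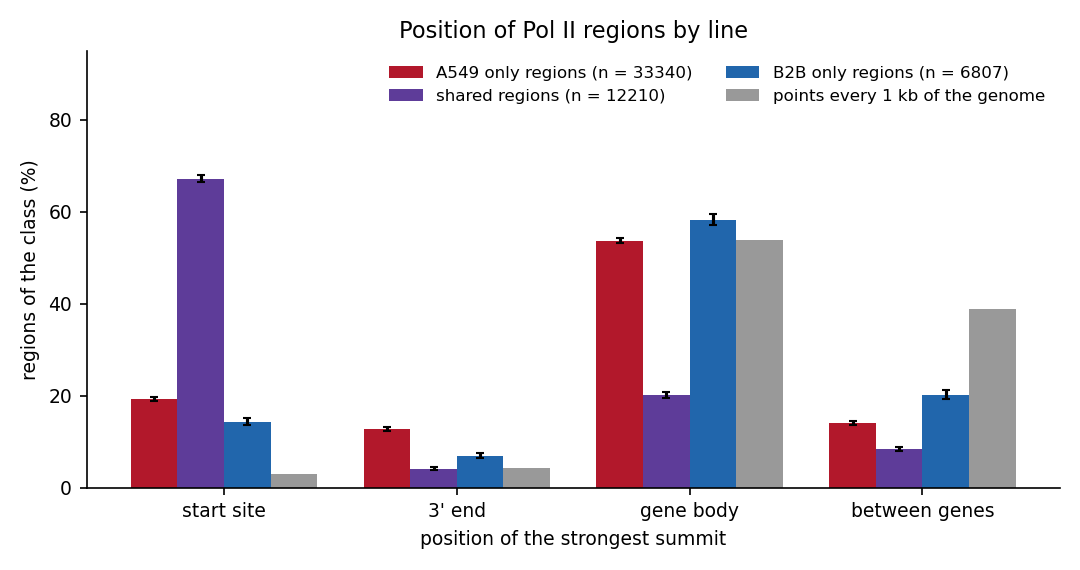
Share of Pol II regions (y axis, % of the class) at each position (x axis) for A549-only, shared and B2B-only regions and for evenly spaced genome points; error bars are 95% Wilson intervals. Shared regions stand at 67.2% at start sites, where both single-line classes are under 20%.

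Most regions at the 3′ ends of genes were called in A549 only, as were most regions overall (63.7%) and in gene bodies (73.6%). Of 5260 regions at 3′ ends, 81.2% (80.1 to 82.2) were A549 only, 9.73% shared and 9.09% B2B only, whereas at start sites 41.2% were A549 only, 52.5% shared and 6.27% B2B only. As a share of its class, the 3′ end held 12.8% of A549-only and 7.02% of B2B-only regions, a difference of 5.79 points (5.06 to 6.47). With both lists cut to the same length that difference was 0.363 points (−0.401 to 1.12), so it was not seen among equally many peaks.

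Peaks were wider in A549, most of all at start sites. Within the 12210 shared regions the median length under peaks was 1063 bp in A549 and 525 bp in B2B, and A549 covered more bases in 85.4% (84.8 to 86.0) of them. At start sites the medians were 1238 and 589 bp, with A549 wider in 92.3%. In gene bodies they were 574 and 402 bp, with A549 wider in 69.5%. A single A549 peak lay over several B2B peaks in 21.7% of shared regions, and the reverse held in 1.63%. Regions of a single line were short, with a median of 328 bp in A549 only and 282 bp in B2B only, against 1105 bp for shared regions. Of regions under 250 bp 0.942% were shared, and of the 362 regions of 5 kb or more 80.9% were. A shared region spans all the peaks of both lines that it joins, and a long peak has more room to overlap another. The differences in width between shared and single-line regions are thus partly built into the classes.

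The local background of the peak caller differed between the lines at start sites, and it moves with these widths. At start-site peaks the median background was 2.48 reads in A549 and 28.9 reads in B2B, the latter 17.3 times the lowest value of its own list. Over all start-site peaks of each list the median pileup was 122 reads in A549 and 116 in B2B, and the median fold enrichment 30.7 and 4.08. In the shared start-site regions alone the median pileup was 197 reads in A549 and 140 in B2B, higher in A549 in 78.9% of them. Away from start sites the background medians lay between 2.16 and 2.52 reads in A549 and between 2.45 and 3.43 reads in B2B. The part of the background in the widths, in the number of start-site peaks and in every fold enrichment at a start site was not tested. Of the 6450 A549-only regions at start sites, 2761 (42.8%) had a pileup below the median B2B background at start sites.

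**Figure D2:**
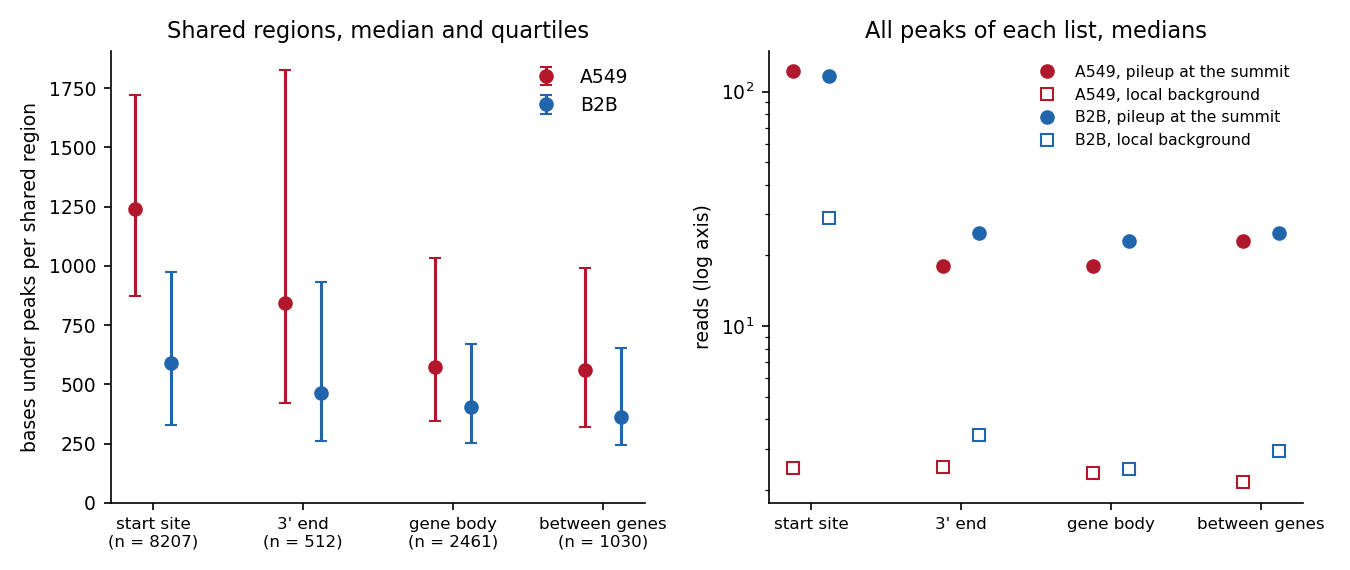
Left, bases under peaks per shared region (y axis) by position (x axis) in each line, as medians with quartiles; right, median summit pileup (filled circles) and median local background (open squares) in reads on a log axis for all peaks of each list. A549 widths exceed B2B widths at each position, and the B2B background stands at 28.9 reads at start sites against 2.48 in A549.

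To investigate which genes carried Pol II at their start, 17898 protein-coding genes were scored for a peak within 1 kb of an annotated start. Both lines had a peak at 8422 genes (47.1%), A549 alone at 3364 (18.8%), B2B alone at 295 (1.65%) and neither at 5817 (32.5%). These shares are the background against which the gene groups below are read. The B2B list had no peak from 3 kb before the start to 3 kb past the end of 2615 of the A549-only genes, and the A549 list had none over 222 of the B2B-only genes. Of A549-only genes 641 (19.1%) had a pileup under the median B2B background at start sites, and 1251 (37.2%) had at least 100 reads. Among genes with a peak in both lines the median pileup was 205 reads in A549 and 136 in B2B, and it was higher in A549 at 83.5% (82.7 to 84.3) of them.

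The A549-only start sites of highest fold enrichment included those of DIPK1B, EID3, PERP, AREG, HMGA1, TAF4B and HSPA12A, with pileups from 267 to 330 reads and no B2B peak over any of the genes. AREG encodes amphiregulin, a ligand of the EGF receptor, and its peak (chr4:74444738-74445871, hg38) reached 273 reads over a background of 1.65, with peaks over 57.3% of its body and at its 3′ end. HMGA1, an architectural chromatin protein, had a 3138 bp peak of 292 reads (chr6:34235324-34238461) and 36.0% of its body under peaks. PERP, a p53 target of desmosomes, reached 298 reads. The value of EID3 belongs to a 24849 bp peak over the neighbouring TXNRD1 that contains the small EID3 gene, and the 2 genes cannot be told apart. The 8597 bp peak of DIPK1B was counted at an annotated start inside the gene and ran past its 3′ end. The peak of HSPA12A also lay inside its gene, away from the 5′ end.

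The B2B-only start sites of highest fold enrichment were H2BC8, H2AC8, IFI16, ZNF736, SLFN12, CPA4, TRIM22 and ZNF793. H2BC8 and H2AC8 are divergent histone genes that shared a 2926 bp peak (chr6:26215083-26218008) of 248 reads over a background of 4.53. IFI16, a sensor of foreign DNA, had a peak of 89 reads (chr1:159009693-159010450), TRIM22, an antiviral gene induced by interferon, had a peak of 60 reads and SLFN12, of the Schlafen family, had a peak of 134 reads. CPA4, a carboxypeptidase, had a 384 bp start peak of 88 reads and a peak at its 3′ end. The peaks of IFI16 and ZNF736 were counted at annotated starts inside the gene, away from its 5′ end. Fold enrichments of these 8 genes lay between 19.4 and 45.0, below the 101 to 125 of the 8 A549-only genes. Such values are comparable only within a list, because of the difference in background.

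Genes that ranked high in both lists were SLC7A11, ANKRD17, GTF2A1, RND3, JMJD1C and TTC1. SLC7A11, the cystine transporter, had a start-site pileup of 292 reads in A549 and 103 in B2B, and 57.0% of its body lay under A549 peaks against 0% in B2B. RND3, an atypical small GTPase, was alike in the lines, with 302 and 284 reads, peak widths of 3853 and 3865 bp and peaks at its 3′ end in both. GTF2A1 encodes a subunit of the initiation factor TFIIA and reached 327 reads in A549 and 269 in B2B. JMJD1C, a putative histone demethylase, had the highest fold enrichment of these genes in B2B, 78.9, at 210 reads. The peaks of RND3 and JMJD1C in both lines, and of ANKRD17 in B2B, were counted at annotated starts inside the gene.

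The genes of the transcription machinery carried Pol II at their start in both lines. All 11 genes of Pol II subunits did, as did 28 of 29 genes of initiation factors, 19 of 20 of pausing and elongation factors and 16 of 16 of cleavage and termination factors, against 47.1% of all protein-coding genes. The exceptions, GTF2H4 with 72 reads and NELFB with 54 reads, had peaks in A549 only. POLR2A, the largest subunit, reached 325 reads in A549 and 314 in B2B over peaks of 1999 and 1880 bp. TBP, the TATA-binding protein, reached 281 and 215 reads, and CDK9, the kinase of P-TEFb, 182 and 115 reads. HEXIM1, which inhibits that kinase, reached 305 and 299 reads, and 41.3% of its body in A549 and 13.0% in B2B lay under peaks.

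Immediate early genes, which are induced within minutes by growth factors and stress, were among the most densely covered in both lines. Of 26 such genes 24 had start-site peaks in both lines, and EGR2 and EGR3 had them in A549 only with 86 and 46 reads. Of the 12 that are over 5 kb, 8 in A549 and 4 in B2B had at least 50% of their body under peaks, against 2.34% of all 15533 genes of that length in A549 and 0.258% in B2B. The FOS gene reached 314 reads in A549 and 290 in B2B with peaks over 100% and 92.8% of its body, and MYC reached 314 and 256 reads over 91.6% and 56.4%. The order was the other way round at CCN2, a matricellular growth factor, whose body was covered over 18.5% in A549 and 100% in B2B. Heat shock chaperones had start-site peaks in both lines at 13 of 13 genes, and HSPA5, the chaperone of the endoplasmic reticulum, was covered over 100% of its body in both.

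Targets of NRF2, the transcription factor of the oxidative stress response, were occupied mainly in A549. Of 21 targets, 11 (52.4%) had a start-site peak in A549 only, against 18.8% of all genes, 10 had one in both lines and none had one in B2B only. AKR1B10, an aldo-keto reductase, had an A549 peak of 17711 bp (chr7:134526631-134544341) that reached 306 reads and covered its whole body. AKR1C1 and AKR1C2, of the same family, reached 300 and 299 reads in A549, and because they are near-identical copies their reads may be shared. ME1, whose promoter is given above, reached 260 reads, ABCC3, an export pump, 253 reads and TKT, the transketolase, 219 reads. Where both lines had a peak, A549 was higher at 10 of 10 genes, against 83.5% of all such genes. NQO1, the quinone reductase, reached 315 reads in A549 and 133 in B2B, with 95.6% and 0% of its body under peaks. TXNRD1, thioredoxin reductase, reached 319 and 173 reads, and GCLC, the catalytic subunit of glutathione synthesis, 300 and 138 reads. Of the 19 targets over 5 kb, 12 had at least 50% of their body covered in A549 and none in B2B, against 2.34% and 0.258% of all genes of that length.

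Genes that distinguish epithelial from mesenchymal cells were divided between the lines. Of 19 simple epithelial genes 7 (36.8%) had a start-site peak in A549 only, 4 in both, 1 in B2B only and 7 in neither. Of all protein-coding genes 18.8% were A549 only, 47.1% both, 1.65% B2B only and 32.5% neither. ELF3, an epithelial transcription factor, had an A549 peak of 9793 bp with 315 reads, and KRT7, a simple keratin, reached 304 reads in A549. Of 16 basal airway genes 6 (37.5%) were A549 only, 3 both, 1 B2B only and 6 neither. In both lists the share with neither peak was near that of all genes. ITGA6, an integrin, reached 281 reads in A549 only, while the A549-only peaks of TP63, LAMB3 and NGFR were weak at 13, 18 and 30 reads. KRT17 had a B2B-only peak of 189 reads with 71.1% of its body covered.

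Of 21 mesenchymal genes, 6 (28.6%) had a start-site peak in B2B only, against 1.65% of all genes, 3 in A549 only, 6 in both and 6 in neither. SPARC, a matrix glycoprotein, had a B2B peak of 2706 bp that reached 269 reads, and COL1A1, which encodes a chain of type I collagen, reached 224 reads. COL5A1, LOX, PDGFRB and SNAI2 reached 155, 80, 77 and 37 reads in B2B. In A549 only were ZEB1 with 157 reads, TWIST2 with 69 and TWIST1 with 26. VIM, which encodes vimentin, went the other way with 280 reads in A549 and 135 in B2B. Of 17 lung and endoderm genes 8 (47.1%) were A549 only, 2 both and 7 neither, against 18.8%, 47.1% and 32.5% of all genes. GATA6, FOXA3 and HNF4G, endodermal transcription factors, reached 152, 146 and 130 reads in A549, whereas the A549-only peak of NKX2-1 had 13 reads and the surfactant genes SFTPA1, SFTPB, SFTPC and SFTPD had no start-site peak in either line.

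Replication-dependent histone genes, which lie in clusters and are transcribed in S phase had peaks in both lines at 56 of 69 genes. Of the others 9 (13.0%, against 1.65% of all genes) had a peak in B2B only, none in A549 only and 4 in neither. At the 56 genes the median pileup was 282 reads in A549 and 239 in B2B, and it was higher in A549 at 43 of them. The B2B-only genes were H1-1, H1-5, H2AC7, H2AC8, H2BC7, H2BC8, H3C4, H3C8 and H4C6, with pileups from 123 to 248 reads. H2AC7 and H2BC7 shared a peak as H2AC8 and H2BC8 did, so the 9 genes stand for fewer peaks. Many histone genes are near-identical in sequence, and how the authors treated reads with several matches is not given in the sources used here. Of 75 cytosolic ribosomal protein genes 73 had peaks in both lines, and RPL3L and RPL10L in neither. Among the 42 over 5 kb, 25 in A549 and none in B2B had at least 50% of their body covered, against 2.34% and 0.258% of all genes of that length.

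**Figure D3:**
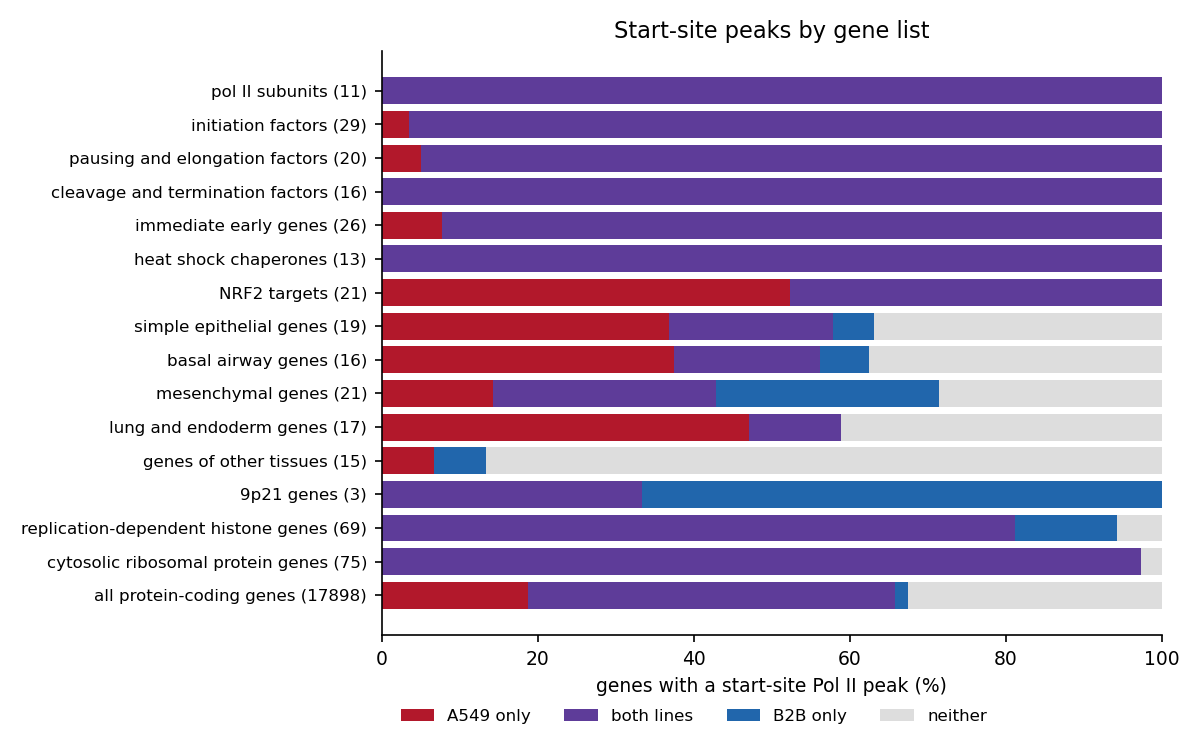
Share of each gene list (x axis, %) with a start-site Pol II peak in A549 only, both lines, B2B only or neither; list sizes are in brackets and all 17898 protein-coding genes are the last bar. NRF2 targets show the A549-only share of 52.4% and mesenchymal genes the B2B-only share of 28.6%, against 18.8% and 1.65% of all genes.

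To investigate Pol II beyond the start site, the part of each gene from 1 kb after its start to its end was measured. In A549 364 genes over 5 kb (2.34%) had at least 50% of this body under peaks, in B2B 40 (0.258%), and 34 genes did in both. Any peak in the body was found at 51.8% of genes in A549 and 32.1% in B2B. Among genes with a start-site peak in both lines, short genes were covered most often. At 5 to 10 kb 17.6% were covered in A549 and 2.02% in B2B, and at 25 to 50 kb 1.46% and 0.163%. With both lists cut to equal length 245 genes were covered in A549 and 40 in B2B.

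Along 7624 genes with a start-site peak in both lines, more genes lay under A549 peaks than under B2B peaks at each position. The genes were selected for a peak near a start in both lines. High coverage at the start was therefore built in and does not show that the lines were alike there. At the start 97.0% of genes lay under an A549 peak and 85.3% under a B2B peak. At 500 bp past the start the shares were 65.8% and 26.0%, and in the middle of the body 5.72% and 1.01%. They were 7.49% and 1.88% at the gene end and 11.4% and 3.32% at 1000 bp past it, so both lines showed another, lower maximum beyond the 3′ end. The median start-site summit lay 23 bp downstream of the start in A549 (7822 genes, quartiles −116 and 46 bp). In B2B it lay 36 bp downstream (7608 genes, quartiles −134 and 67 bp). The spread was wide, and 61.9% of summits in A549 and 67.5% in B2B lay downstream.

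**Figure D4:**
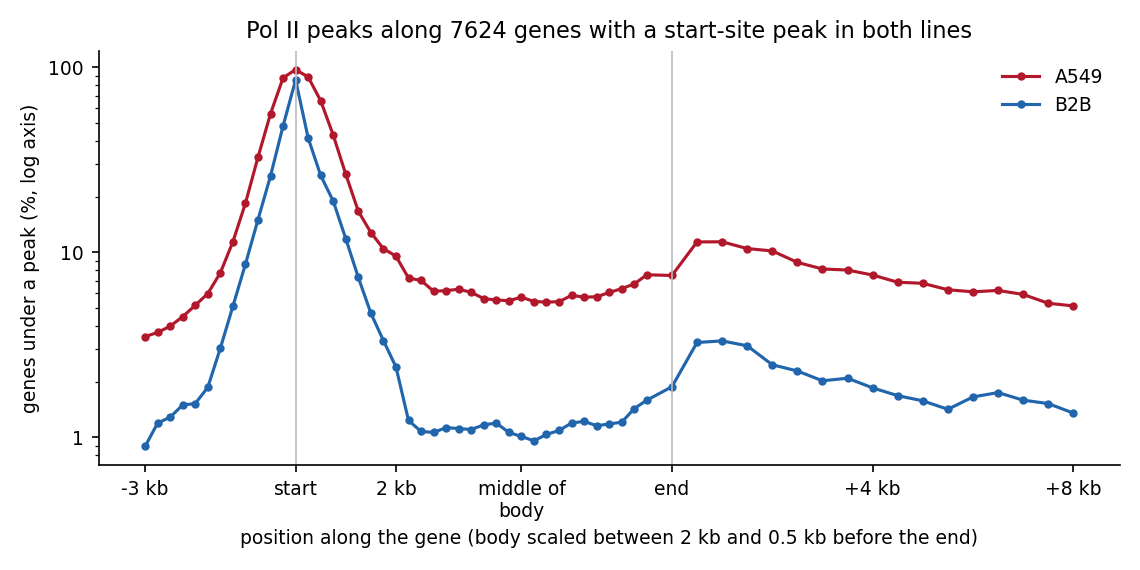
Share of genes under a Pol II peak (y axis, %, log axis) along 7624 genes with start-site peaks in both lines (x axis, distance from start or end, body scaled). The A549 line stands above the B2B line throughout, with 97.0 and 85.3% at the start and 11.4 and 3.32% at 1000 bp past the end.

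The genes with the largest excess of body coverage in A549 included ZC3H12A, TRIM28, UCHL1 and PTBP1, with 98.7 to 100% of the body under A549 peaks and 0% under B2B peaks. ZC3H12A, an RNase that limits inflammatory transcripts, lay under a single A549 peak of 14493 bp (chr1:37473316-37487808), where B2B had a 407 bp peak at the start. The start-site pileups of ZC3H12A were 317 reads in A549 and 275 in B2B, with backgrounds of 1.89 and 46.6 reads. TRIM28, a corepressor, had a similar pair of 322 and 297 reads. UCHL1 had 313 and 178 reads. These pileups and backgrounds were read at the start-site summit, not in the body, and their part in the body coverage was not tested.

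The excess was in B2B at B2M, CALR, THBS1, AJUBA and SMC4. B2M, the light chain of HLA class I, was covered over 89.9% of its body in B2B and 8.01% in A549, with pileups of 289 and 282 reads at the start. Its B2B peak was 5978 bp wide (chr15:44710269-44716246) against 1267 bp in A549. THBS1, which encodes the matrix protein thrombospondin, was covered over 40.1% in B2B and 0.972% in A549, with 295 and 152 reads at the start. CALR, the chaperone calreticulin, was covered over 97.1% and 56.6%.

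At the ends of genes with a start-site peak in both lines, 30.9% (30.0 to 31.9) had a 3′ end peak in A549 and 13.6% (12.9 to 14.3) in B2B. Of the A549-only genes 24.3% had one in A549 and 7.07% in B2B, and of the B2B-only genes 9.83% had one in A549 and 15.6% in B2B. Among genes with a start-site peak in neither line the shares were 8.97% in A549 and 4.09% in B2B. Genes of all lengths were counted, and in a short gene the start-site peak itself can reach the 3′ end window. The strongest A549-only region at a 3′ end overlapped PRR7 and DBN1 (chr5:177450856-177458026), was 7171 bp long and reached 266 reads. The strongest B2B-only region at a 3′ end overlapped SSH1 (chr12:108832647-108834054), was placed by the end of the annotated gene ENSG00000274598 and reached 129 reads.

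The longest regions followed highly occupied genes. The longest A549-only region, 29509 bp (chr16:87813842-87843350), covered part of SLC7A5, a transporter of large amino acids. Others covered IGFBP4 with TNS4, AKR1B10, TMEM184A, TXNRD1 and AKR1C1 with AKR1C2. The regions at SLC7A5, TMEM184A and TXNRD1 lay close beside long shared regions (chr16:87843514-87863899, chr7:1530399-1551565 and chr12:104285740-104310588). B2B thus had peaks at these 3 loci too. The longest shared region, 30318 bp over KRT7 and KRT86 (chr12:52235304-52265621), was a single A549 peak with 3 B2B peaks of 815 bp in all. In contrast, at the long non-coding RNA NEAT1 (chr11:65417179-65437120) the lines were nearly equal, with 18643 bp under A549 peaks and 18274 bp under B2B peaks. The longest B2B-only region was 10943 bp over RRM2, a subunit of ribonucleotide reductase (chr2:10127376-10138318), with 89 reads, and others lay at SLC20A2, HLA-B, CDKN2A, B2M and HHAT.

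Other antibodies of the series, which did not enter the classes, were then compared at these regions. H3K4me3, a histone mark of promoters, overlapped 81.5% of shared, 34.3% of A549-only and 12.8% of B2B-only regions in A549, and 74.4%, 13.1% and 26.4% in B2B. The difference between A549-only and B2B-only regions was 21.5 points (20.6 to 22.5) for A549 H3K4me3 and −13.3 points (−14.5 to −12.2) for B2B H3K4me3, so each line's mark was more frequent at its own regions. At the 3364 A549-only genes 94.4% of starts held A549 H3K4me3 and 60.4% held B2B H3K4me3. At the 295 B2B-only genes the shares were 28.1% and 87.1%. Many A549-only start sites thus carried H3K4me3 in B2B without a B2B Pol II peak.

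Over all positions, H3K27ac, Med1 and the AP-1 protein Jun were also more frequent at the regions of their own line, but not at each position. On chromosomes 1 to 12, H3K27ac, a mark of active promoters and enhancers, overlapped 34.2% of A549-only and 6.96% of B2B-only regions in A549, and 15.6% and 26.7% in B2B. On the same chromosomes Med1, a subunit of the Mediator complex, differed between A549-only and B2B-only regions by 14.5 points (13.7 to 15.3) in A549, where it overlapped 5.49% of the B2B-only regions, and by −18.8 points (−20.1 to −17.4) in B2B, at 12.9% and 31.6%. At start sites A549 Med1 overlapped 35.4% and 0.303%, while B2B Med1 overlapped 38.0% and 40.2%, a difference of −2.19 points (−6.24 to 1.76) whose interval includes 0. B2B Jun overlapped 57.6% of B2B-only, 30.0% of shared and 10.3% of A549-only regions, and 64.7% of the B2B-only regions in gene bodies. A549 Jun overlapped 16.4%, 49.9% and 19.9% of the same classes. At 3′ ends it overlapped 9.93% of A549-only regions, which differed from B2B-only regions by −1.58 points (−4.86 to 1.15). CTCF, an insulator protein, overlapped 48.5% of B2B-only and 14.4% of A549-only regions in B2B, but Rad21, the cohesin subunit that usually accompanies it, overlapped 16.1% and 17.3%.

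**Figure D5:**
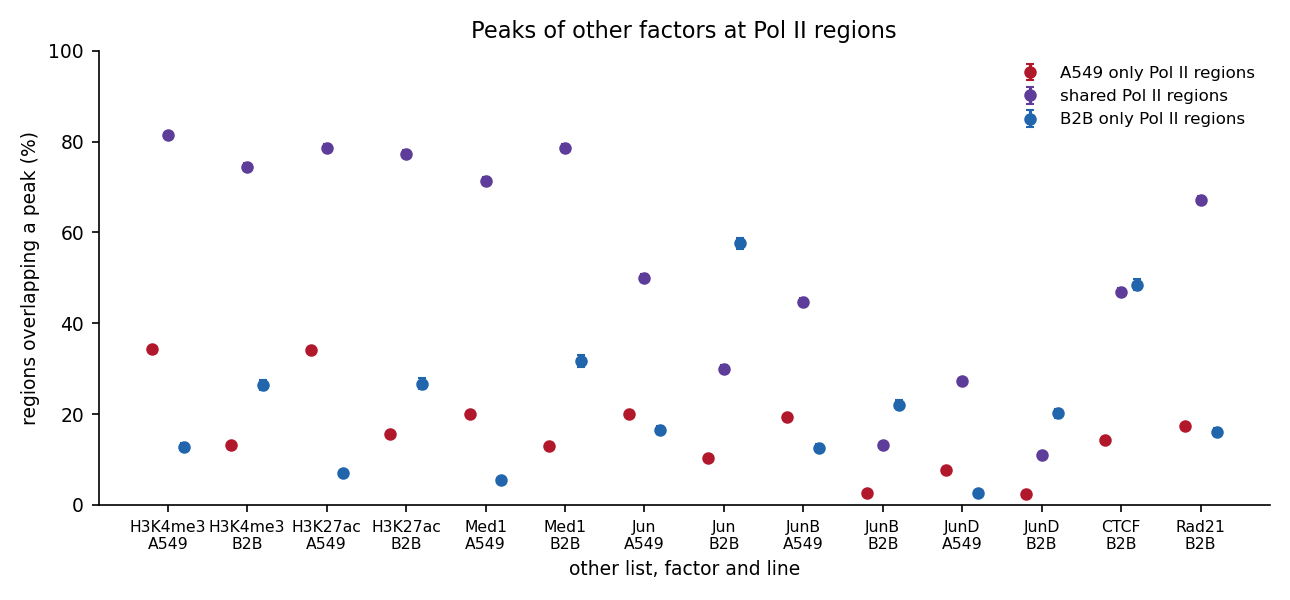
Share of A549-only, shared and B2B-only Pol II regions (y axis, %) that overlap a peak of each other factor and line (x axis), with 95% Wilson intervals; H3K27ac and Med1 cover chromosomes 1 to 12. B2B Jun and B2B CTCF stand at 57.6 and 48.5% of B2B-only regions, where B2B Rad21 stands at 16.1%.

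The sequence under the summits was searched for short motifs. GGGCGG, the core of the GC box, lay within 100 bp of the summit of 18.0% of A549-only, 44.4% of shared and 6.88% of B2B-only regions. The AP-1 motif (TGACTCA or TGAGTCA) lay within 100 bp of the summit of 8.98% of A549-only, 7.81% of shared and 10.3% of B2B-only regions, against 8.88% of all regions and 3.14% of windows 2 kb away. It was most frequent in shared gene-body regions, at 19.5% (17.9 to 21.1). B2B-only regions held it more often than A549-only regions in gene bodies, at 11.6% and 9.84%, and less often between genes, at 9.42% and 13.8%. Of all B2B CTCF peaks 10.7% held the CTCF core motif within 100 bp of their summit, and of those clear of Pol II regions 13.0%. The share was 0.604% (0.395 to 0.922) for B2B CTCF peaks over B2B-only Pol II regions, 2.36% over shared regions and 10.9% over A549-only regions. Of B2B Jun peaks 45.0% held the AP-1 motif. The share was 28.1% (26.8 to 29.6) for those over B2B-only Pol II regions, 42.0% over shared regions and 60.9% over A549-only regions. The CTCF core is strict, so a peak without a match may still hold a weaker site.

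Promoters of the gene classes differed in CpG content and in short motifs. In the window from 250 bases before to 50 after the canonical start, read from hg38, the median number of CpG was 28 for A549-only genes, 28 for genes with peaks in both lines, 16 for B2B-only genes and 6 for genes with neither. TATAAA on either strand lay in 13.2% (9.82 to 17.6) of B2B-only promoters, 5.38% of A549-only promoters, 5.09% of promoters with peaks in both lines and 9.74% of all 17898. GGGCGG lay in 56.9% of B2B-only, 75.7% of A549-only and 61.5% of all promoters, a difference between A549-only and B2B-only of 18.7 points (13.0 to 24.6). CCAAT lay in 46.4% of B2B-only, 30.9% of A549-only and 36.0% of all promoters. The AP-1 motif lay in 3.0% of A549-only, 5.42% of B2B-only and 3.59% of all promoters. Promoters of genes with neither peak held TATAAA in 18.8%, GGGCGG in 33.5%, CCAAT in 35.2% and the AP-1 motif in 5.48%. For TATAAA and GGGCGG the B2B-only share thus lay between genes with neither peak and genes with both. Histone genes, whose promoters often hold TATA and CCAAT boxes, make up 9 of the 295 B2B-only genes.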

How the data were processed

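ChIP-seq of Pol II was analysed in A549 and B2B cells, with 2 replicates per line, from the deposited narrowPeak lists. As the study's methods describe, the authors mapped reads to hg38 with Bowtie2 2.4.4, removed duplicate reads with their own code, merged the replicates, scaled them with SAMtools 1.13 and called peaks with MACS2 2.2.7.1 (versions per the submitters' processing notes). The caller's options and its control are not given in the sources used here. The score that the authors deposited is a rescaled −log10 q and was not used. The fold enrichment of the authors is the ratio of pileup to local background at the summit. The significance was deposited as −log10 p and −log10 q, with no peak at a q-value above 0.01. Other deposited columns are the peak's position and its summit. Depth per sample is not given in these lists. No deposited column of per-sample values was left unmapped.

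Pileup and background were solved from fold enrichment and −log10 p, and all pileups lay within 0.02 of a whole number. Peaks on chromosomes 1 to 19 that overlapped by at least 1 bp were merged and placed against GENCODE release 44. Analyses used Python 3.11.15, NumPy 2.4.6, pandas 2.3.3, SciPy 1.17.1 and Matplotlib 3.10.9. Overlaps, intervals, merging and the solved values were tested on simulated data, overlaps also against bedtools 2.31.1. Promoter motifs were to be read from the RefSeq table, but it matched 13785 of 17898 genes and fewer than 80% in 3 of the 4 classes, so that comparison is void and windows were read from hg38 at GENCODE canonical starts, a choice made after seeing the data. The CTCF core is a consensus of 12 positions with ambiguous letters, searched on both strands as all motifs were. It replaced a looser consensus after the values of both had been seen, with shares in the same order under each. The summit windows printed were also chosen after their values were seen.

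The members and gene lists were chosen with earlier results of these data known. Genes named are the 8 start sites of highest fold enrichment in each line without a peak of the other line over the gene, the 6 ranked highest in both lists, the 6 longest regions per class, the 5 genes over 5 kb with the largest difference in covered body each way, the strongest 4 regions per class at 3′ ends, from which some are described, and list members, of which those described were picked after their values were seen. Some of these genes and regions are not reported here. Alternatives were a −log10 q of at least 5, both lists cut to the same number of peaks, and other overlaps, windows, gene sets and body thresholds. Canonical transcripts, a summit pileup of at least 100 reads, and the motifs at summits were added after seeing the data.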

Additional observations from a re-analysis of the deposited data

Results flagged for a closer look

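The B2B list held 2252 Pol II peaks on chromosomes 20, 21, 22 and X, with 696, 374, 516 and 666 peaks, where the A549 list has no full record, and these peaks entered no comparison. A further 109 B2B peaks lay on unplaced or alternate sequences and were not compared either. Both were noted because they are signal outside the chromosomes that were compared.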

How the results depend on the processing

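The share of regions called in both lines, 23.3%, was 25.3% with a −log10 q of at least 5, 34.9% with lists of equal length, 8.55% when single peaks had to overlap by 50% of each and 32.1% when regions up to 1 kb apart counted as shared. The share of shared regions that were wider in A549, 85.4%, was 86.2% at the stricter q, 90.3% with equal lengths, 84.2% on chromosomes 1 to 12 and 89.1% with single peaks. The start-site share of shared minus A549-only regions, 47.9 points, was 39.7 with equal lengths, 49.1 with a 500 bp window and 39.3 with a 3 kb window. The 364 genes with a covered body in A549 became 731 at 25% and 197 at 75% of the body, and 418 with canonical transcripts. The 3364 genes with a start-site peak in A549 only were between 2264 and 3476, the former at a pileup of at least 100 reads, where the B2B-only genes were 498 in place of 295. With lists of equal length the median width of A549-only regions was 606 bp. The gene-body share of A549-only minus B2B-only regions, −4.56 points, was −0.999 (−2.30 to 0.304) with protein-coding genes only. The cause of these changes was not tested. Shares, counts and widths cannot change sign, so only differences between shares could have reversed their direction, and none of these did. Of 91 other values 62 stayed within the counting error or 1.5 times and 29 moved by more. No paired analysis was possible because the replicates had been pooled before peaks were called, and for the same reason no replicate could be left out. The number of reads behind each list is not known, so a missing peak shows only that none was called.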
